A study of Mus musculus with 2 samples.

Results

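The genes described here are Hmgcs1, Idi1, Fdps, Fdft1 and Sqle, which encode enzymes of cholesterol synthesis, Insig1, which encodes a sterol-dependent brake on it, and Srebf2, which encodes the transcription factor SREBP2. They were chosen by name, and all 7 were found among the 55357 genes of the deposited tables. The cells came from crypt-enriched epithelium of the small intestine and were sequenced singly, from mice of 2 genotypes that the labels spell Adipfl/fl and Adipfl/flpVilli-CreT, called adip fl/fl and adip fl/fl-Villi-Cre here. Both carry the floxed adiponectin alleles, and only the latter carry a Cre recombinase driven by the villin promoter, whose activity is in the gut epithelium rather than in the immune cells caught with it. Each genotype is 1 library, described in the study's legend as pooled from young adult males, so there is no replicate and no test between genotypes. All intervals are exact 95% intervals and cover counting error only.

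Cells make cholesterol from acetyl-CoA by the mevalonate pathway, which also supplies isoprenoids for protein prenylation, ubiquinone and dolichol. When membrane sterols run low, SCAP escorts SREBP2 from the endoplasmic reticulum to the Golgi, where proteases release its active part. That part then raises the transcription of most genes of the pathway. INSIG1 and INSIG2 hold the SCAP complex back when sterols are plentiful. The small intestine both absorbs cholesterol, at the villus, and synthesizes it, and dividing crypt cells need sterol for new membranes.

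RefSeq promoters (GRCm38.p6) were matched for 4 of the 7 genes, and 3 are shown because SREBP2 is known to act through a short sequence, the sterol regulatory element, that can be looked for in them. Each is a stretch upstream of the annotated gene start, 5′ to 3′ on the strand of the gene, from chr13:119690101-119690350 for Hmgcs1, chr15:82147019-82147180 for Srebf2 and chr5:28071162-28071362 for Insig1, all on the plus strand. Capitals mark the letters TCACNCCA, the core of the element, and the CCAAT box, which NF-Y reads, searched on both strands, and the matches do not overlap.
Hmgcs1: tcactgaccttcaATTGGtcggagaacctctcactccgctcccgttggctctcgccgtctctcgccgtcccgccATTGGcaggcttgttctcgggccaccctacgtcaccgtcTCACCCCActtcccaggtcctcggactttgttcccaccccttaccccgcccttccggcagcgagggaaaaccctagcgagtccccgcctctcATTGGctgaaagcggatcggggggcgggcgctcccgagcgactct
Srebf2: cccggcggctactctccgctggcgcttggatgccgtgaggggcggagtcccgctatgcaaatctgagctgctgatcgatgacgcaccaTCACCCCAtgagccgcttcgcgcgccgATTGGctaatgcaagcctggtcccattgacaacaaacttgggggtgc
Insig1: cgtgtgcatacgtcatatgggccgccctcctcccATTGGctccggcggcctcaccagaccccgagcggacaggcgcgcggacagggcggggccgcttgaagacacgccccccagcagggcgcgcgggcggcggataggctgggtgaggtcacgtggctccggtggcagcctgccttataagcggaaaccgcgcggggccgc
The core stood at 1 place in Hmgcs1 and at 1 place in Srebf2, and these letters were not in the window of Insig1. Of all 32851 promoters, 3.67% held them in a window as long as that of Hmgcs1 (250 bases) and 2.37% in one as long as that of Srebf2 (162 bases). A CCAAT box stood at 3 places in Hmgcs1 and at 1 place each in Srebf2 and Insig1. Of all promoters, 33.8% held one in 250 bases, 21.8% in the 162 bases of Srebf2 and 28.6% in the 201 bases of Insig1. The window of Idi1 (145 bases) held neither. A match describes the letters and is not evidence of binding. On mm10 the genes are Hmgcs1, ENSMUSG00000093930, at chr13:119690379-119708260, Idi1, ENSMUSG00000058258, at chr13:8885501-8892451, Fdps, ENSMUSG00000059743, at chr3:89093588-89101959, Fdft1, ENSMUSG00000021273, at chr14:63145150-63179578, Sqle, ENSMUSG00000022351, at chr15:59315077-59331192, Insig1, ENSMUSG00000045294, at chr5:28071363-28078662 and Srebf2, ENSMUSG00000022463, at chr15:82147181-82205379.

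With the study's limits of more than 500 genes and under 25% mitochondrial UMIs (unique molecular identifiers, 1 for each captured transcript), 3069 of 9791 barcodes were kept for adip fl/fl and 5555 of 11838 for adip fl/fl-Villi-Cre, holding 25687687 and 48895126 UMIs. The mitochondrial limit alone removed 4670 of the 7739 barcodes with more than 500 genes in adip fl/fl, more than were kept. In adip fl/fl-Villi-Cre it removed 4263 of 9818, so the libraries were not depleted alike. The kept cells were grouped into crypt cells, stem-like and TA-like (transit amplifying) together (82 and 212 cells), villus enterocytes (1900 and 3833) and secretory cells, which were goblet-, enteroendocrine- and tuft-like (356 and 531). Of 12 cycling markers the larger stem-like sub-cluster held 12 and the smaller 4, while the TA-like one held 9. TA-like against stem-like is therefore not a comparison of dividing with resting cells. The smaller stem-like sub-cluster (15 and 35 cells) held 10 of 11 stem markers, but the gene leading it was Neurog3, followed by Lgr5. Its median was 8438 UMIs per cell, against 26621 in the larger (24 and 77 cells), so the stem-like class is not uniform. Median UMIs per cell were 19432 and 21622 in crypt, 4234 and 4254 in villus and 5515 and 6502 in secretory cells. No cluster was named as Paneth cells, but the goblet-like cluster (225 and 412 cells) held 6 of 9 Paneth markers beside 7 of 7 goblet markers. Although the tissue is labelled as epithelium, 15.3% and 9.96% of cells were T cell-like. The T cell-like class includes a cluster of 97 and 97 cells with 12 of 12 cycling markers and a median of 10114 UMIs per cell. The floxed gene, Adipoq, had 0 UMIs in the kept cells of both libraries and could not check the labels. The libraries shared 31 barcodes, 3 of them among the cells kept. Apoa1, an abundant enterocyte transcript and a sign of free RNA in other cells, stood at 589 and 1183 CPM in crypt cells of adip fl/fl and adip fl/fl-Villi-Cre, 3989 and 6145 in secretory and 1466 and 3138 in T cell-like cells, against 22098 and 19991 CPM in villus cells, and its part in the results was not tested. CPM here is the UMIs of a gene summed over the cells of a class, per 1000000 UMIs of that class.

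All 7 genes were higher in crypt cells than in villus cells in both libraries. A ratio of at least 1.5, with at least 20 UMIs over both classes, was reached by 7 of 7 genes in each library, and by 47.6% of all genes in adip fl/fl and 48.5% in adip fl/fl-Villi-Cre. The median ratio of the 7 genes was 4.93 and 3.62 in the libraries, in this order, and that of all genes tested was 1.43 and 1.45. Many transcripts thus held a smaller share of the UMIs in villus cells. Of genes used in most cells, Ppia, a folding enzyme, was at 2989 CPM in crypt and 562 in villus cells of adip fl/fl, a ratio of 5.32, and Hprt had 2.34, while Actb, of the cytoskeleton, went the other way with 0.356. Of the 7 genes Fdft1 ranked highest in adip fl/fl, where 6.75% of all genes had a higher ratio, and Srebf2 lowest, with 23.9%. In adip fl/fl-Villi-Cre the highest was Idi1 (11.4%) and the lowest again Srebf2 (31.1%). Mitochondrial UMIs were 4.38% and 4.73% of the total in crypt cells and 12.1% and 11.4% in villus cells, and leaving them out of the total moves the log2 ratio of every gene by -0.121 and -0.105. The size of the ratios depended on the handling of cells: that of Idi1, 6.81 and 5.96, was 16.05 and 14.1 as a mean over each cell's own CPM, and 4.14 and 3.65 in cells under 10% mitochondrial UMIs.

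**Figure D1:**
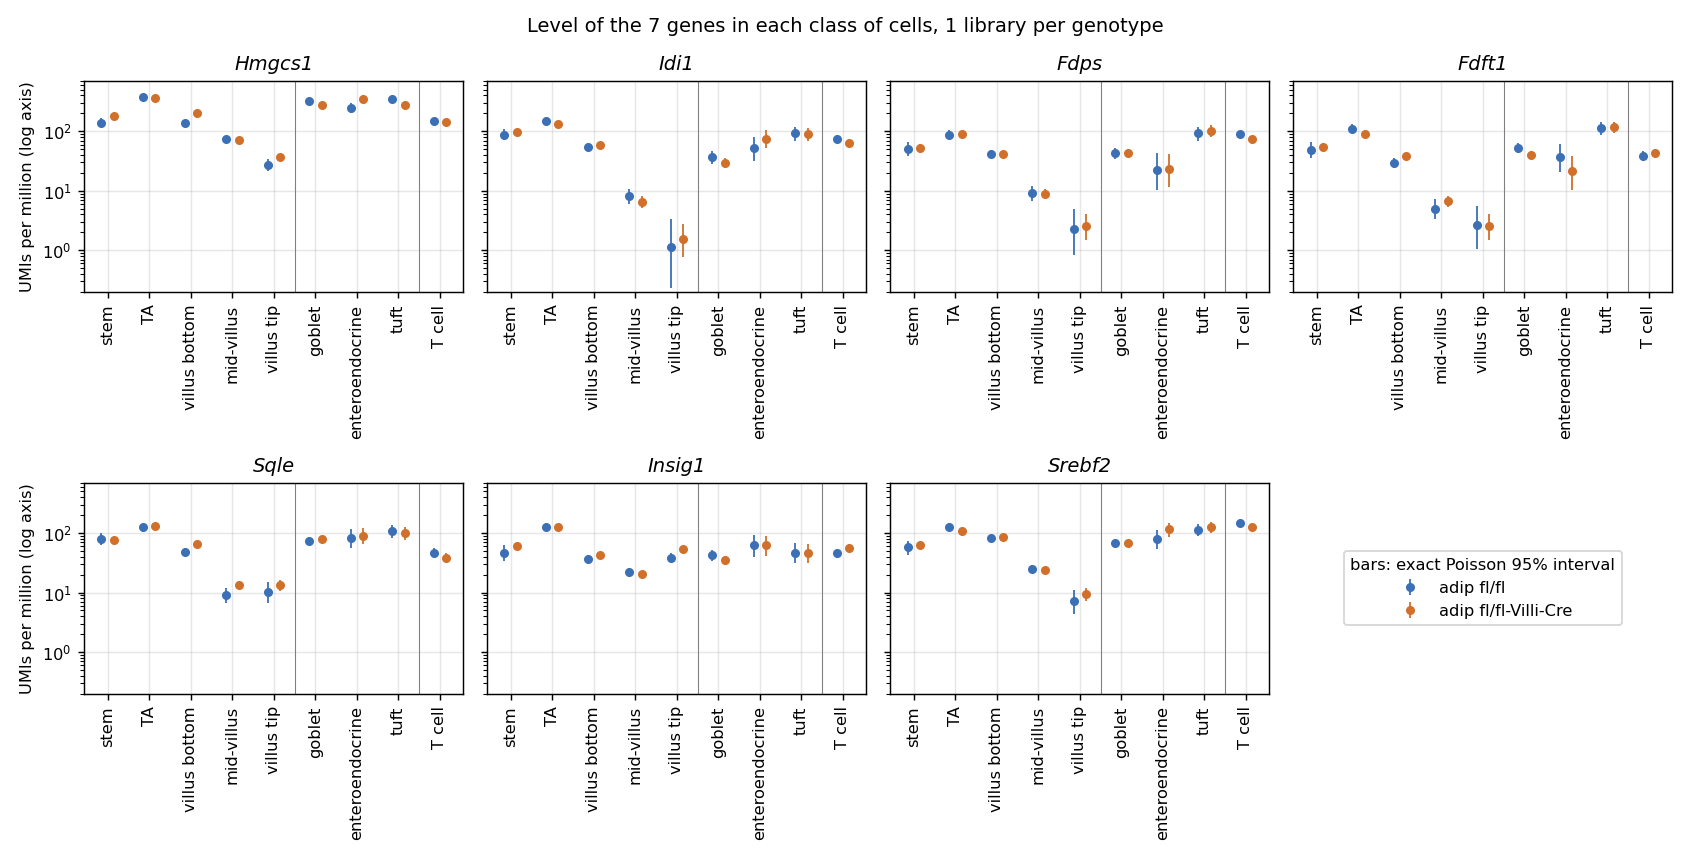
Level of each gene (CPM, log axis) in 9 classes of cells, for adip fl/fl (blue) and adip fl/fl-Villi-Cre (orange), with exact Poisson 95% intervals as bars. From TA-like cells to the villus tip Idi1 falls the furthest (149 to 1.14 CPM in adip fl/fl), while Insig1 is higher at the tip than in the mid-villus and Sqle levels off.

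Hmgcs1, which condenses acetyl-CoA with acetoacetyl-CoA to form HMG-CoA, was at 277 CPM in crypt and 75.6 in villus cells of adip fl/fl, and at 269 and 96.3 CPM in adip fl/fl-Villi-Cre. These are ratios of 3.67 (3.33 to 4.04) and 2.79 (2.62 to 2.97). In adip fl/fl it held 139.8 CPM in stem-like cells, 378 in TA-like cells, 138 at the villus bottom, 74.9 in the mid-villus and 27.6 CPM at the villus tip, and in adip fl/fl-Villi-Cre 179, 357, 201, 72.0 and 37.5 CPM in the same order. In both libraries the level was higher in TA-like than in stem-like cells and lower at each step up the villus, with intervals that did not overlap along these steps. The ratio of mid-villus to tip was 2.71 and 1.92, where all genes had a median of 1.90 and 1.87. Of all genes, 35.9% and 48.9% had a higher ratio in this last step. Mitochondrial UMIs were 5.67% and 5.53% at the villus bottom and 18.8% and 19.0% at the tip. Median UMIs per cell were 24768 and 23232 at the bottom and 3802 and 3526 at the tip.

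Idi1, which isomerizes isopentenyl diphosphate, had the steepest course of the 7. In adip fl/fl it held 87.8 CPM in stem-like cells, 149 in TA-like cells, 55.1 at the villus bottom, 8.16 in the mid-villus and 1.14 CPM at the villus tip, the last from 3 UMIs in 621 cells. In adip fl/fl-Villi-Cre the values were 97.1, 134, 59.1, 6.59 and 1.55 CPM. The ratio of TA-like cells to the villus tip was 132 (44.4 to 643) and 86.5 (47.8 to 175), and 1.07% and 2.43% of all genes had a higher one. Idi1-ps2, a pseudogene counted apart that may share reads with Idi1, was at 2.89 and 2.19 CPM in villus cells, where Idi1 was at 18.1 and 19.4 CPM.

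Fdps, which makes farnesyl diphosphate, held 88.1 CPM in TA-like cells, 41.2 at the villus bottom, 9.05 in the mid-villus and 2.27 CPM at the villus tip of adip fl/fl, and 89.7, 42.3, 8.84 and 2.54 CPM in adip fl/fl-Villi-Cre. Fdft1, squalene synthase, which commits farnesyl diphosphate to sterols, had 111, 29.4, 4.97 and 2.65 CPM in these classes of adip fl/fl and 89.3, 38.0, 6.67 and 2.54 CPM in adip fl/fl-Villi-Cre. Both genes stood lower in the mid-villus than at the villus bottom, by a ratio of bottom to mid-villus of 4.55 (3.30 to 6.37) and 4.79 (3.85 to 6.01) for Fdps and 5.91 (3.88 to 9.29) and 5.70 (4.45 to 7.37) for Fdft1. All genes had a median of 1.15 and 1.18 in this step, and 3.67% and 3.23% of them a higher ratio than Fdps. From the mid-villus to the tip the intervals of Fdft1 overlapped in adip fl/fl and not in adip fl/fl-Villi-Cre, and those of Fdps did not overlap in either. The ratio of mid-villus to tip was 3.99 and 3.48 for Fdps and 1.88 and 2.63 for Fdft1, where all genes had a median of 1.90 and 1.87.

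Sqle, squalene epoxidase, an oxygen-using and rate-limiting step, followed the same course as far as the mid-villus. It held 124 CPM in TA-like cells, 47.7 at the villus bottom, 9.05 in the mid-villus and 10.2 CPM at the villus tip of adip fl/fl, and 129, 64.7, 13.4 and 13.3 CPM in adip fl/fl-Villi-Cre. The ratio of mid-villus to tip was 0.886 (0.545 to 1.47) and 1.01 (0.780 to 1.32), with intervals that hold 1, where all genes had a median of 1.90 and 1.87.

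Insig1, itself a known target of SREBP2, was the exception along the villus. In adip fl/fl it held 47.0 CPM in stem-like cells, 125 in TA-like cells, 36.3 at the villus bottom, 21.8 in the mid-villus and 38.6 CPM at the villus tip, and in adip fl/fl-Villi-Cre 60.4, 127, 42.9, 20.7 and 53.0 CPM. Of the 3 named zones of the villus the mid-villus was its lowest in both libraries. Enterocytes whose zone could not be named held 15.6 and 18.4 CPM, with intervals that overlapped those of the mid-villus. The tip was at 1.77 (1.35 to 2.32) and 2.56 (2.18 to 3.02) times the mid-villus. The ratio of mid-villus to tip was higher than that of Insig1 in 88.7% and 92.2% of all genes. Its paralog Insig2 also stood higher at the tip, with 34.1 CPM in the mid-villus and 81.0 at the tip of adip fl/fl and 40.7 and 90.5 CPM in adip fl/fl-Villi-Cre.

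Srebf2 had the smallest crypt to villus ratio of the 7, 2.85 (2.42 to 3.34) and 2.40 (2.15 to 2.67). In adip fl/fl it held 57.2 CPM in stem-like cells, 125 in TA-like cells, 80.9 at the villus bottom, 25.02 in the mid-villus and 7.19 CPM at the villus tip, and in adip fl/fl-Villi-Cre 62.6, 109, 85.3, 24.3 and 9.45 CPM. Unlike the enzymes it was highest in T cell-like cells, with 149 and 127 CPM, and the intervals there overlapped those of TA-like and tuft-like cells in both libraries. Srebf1, the paralog that mainly serves fatty acid synthesis, had crypt to villus ratios of 0.978 (0.770 to 1.23) and 1.19 (1.01 to 1.40).

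Secretory cells held most of the 7 genes well above the villus. The secretory to villus ratio reached 1.5 in 7 of 7 genes in adip fl/fl and 6 of 7 in adip fl/fl-Villi-Cre, against 28.6% and 26.5% of all genes. The gene that did not reach it was Insig1, with 1.16 (0.989 to 1.35). Hmgcs1 was at 319 and 280.4 CPM in secretory cells, with crypt over secretory ratios of 0.870 (0.786 to 0.963) and 0.958 (0.889 to 1.03). By class, goblet-, enteroendocrine- and tuft-like cells held 324, 248 and 348 CPM of Hmgcs1 in adip fl/fl and 272, 352 and 279 CPM in adip fl/fl-Villi-Cre, so the order of these classes differed between the libraries. Tuft-like cells, the chemosensory cells of the epithelium, held 92.2 and 101 CPM of Fdps and 112 and 117 CPM of Fdft1, with intervals that overlapped those of TA-like cells. The ratio of tuft-like to TA-like cells was 1.05 (0.749 to 1.45) and 1.13 (0.856 to 1.48) for Fdps. For Fdft1 it was 1.00 (0.743 to 1.34) in adip fl/fl and 1.31 (1.01 to 1.69) in adip fl/fl-Villi-Cre, the last interval lying above 1. Enteroendocrine-like cells were lower in both genes, with 22.4 and 23.4 CPM of Fdps and 37.3 and 21.3 CPM of Fdft1, from 9 to 15 UMIs each. Idi1 was lower in goblet-like than in TA-like cells, with ratios of 0.244 (0.183 to 0.322) and 0.222 (0.178 to 0.275). T cell-like cells, which are not epithelium, held 74.6 and 62.9 CPM of Idi1, 90.9 and 74.7 of Fdps and 46.5 and 38.3 CPM of Sqle. Summed over the 7 genes they held 594 and 547 CPM, and myeloid-like cells, also not epithelium, 557 and 545 CPM. The myeloid-like cluster held 7 of 8 markers of B or plasma cells beside 8 of 8 myeloid markers. Stem-like cells held 511 and 581 CPM and villus cells 199 and 243 CPM, so levels above the villus were not particular to crypt and secretory cells.

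Because deeper cells show more genes, the share of cells with a UMI was compared after thinning each cell to 2000 UMIs, which left out 0 and 1 crypt cells and 115 and 167 villus cells. A UMI of Hmgcs1 was then found in 36.6% (26.2 to 48.0) of crypt and 9.08% (7.78 to 10.5) of villus cells of adip fl/fl, and in 37.4% (30.9 to 44.3) and 9.93% (8.98 to 10.9) in adip fl/fl-Villi-Cre. Before thinning these shares were 85.4% and 26.5%, and 84.4% and 28.6%. For all 7 genes the interval in the crypt lay above that in the villus in both libraries, with Insig1 in adip fl/fl at 12.2% (6.01 to 21.3) against 4.71% (3.77 to 5.79). With cells thinned to 1000 UMIs, or kept only under 10% mitochondrial UMIs, this held for 4 of 7 genes. No class is known to lack these genes, so none gives a share that is background alone, and at the villus tip a UMI was found in 0.340% of adip fl/fl cells for each of Idi1, Fdps and Fdft1, from 2 cells each, and in 0.240% of adip fl/fl-Villi-Cre cells for Idi1, from 4. At least 2 of the 7 genes were found in 32.9% and 40.3% of thinned crypt cells, 28.8% and 27.0% of secretory and 3.03% and 3.98% of villus cells.

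**Figure D2:**
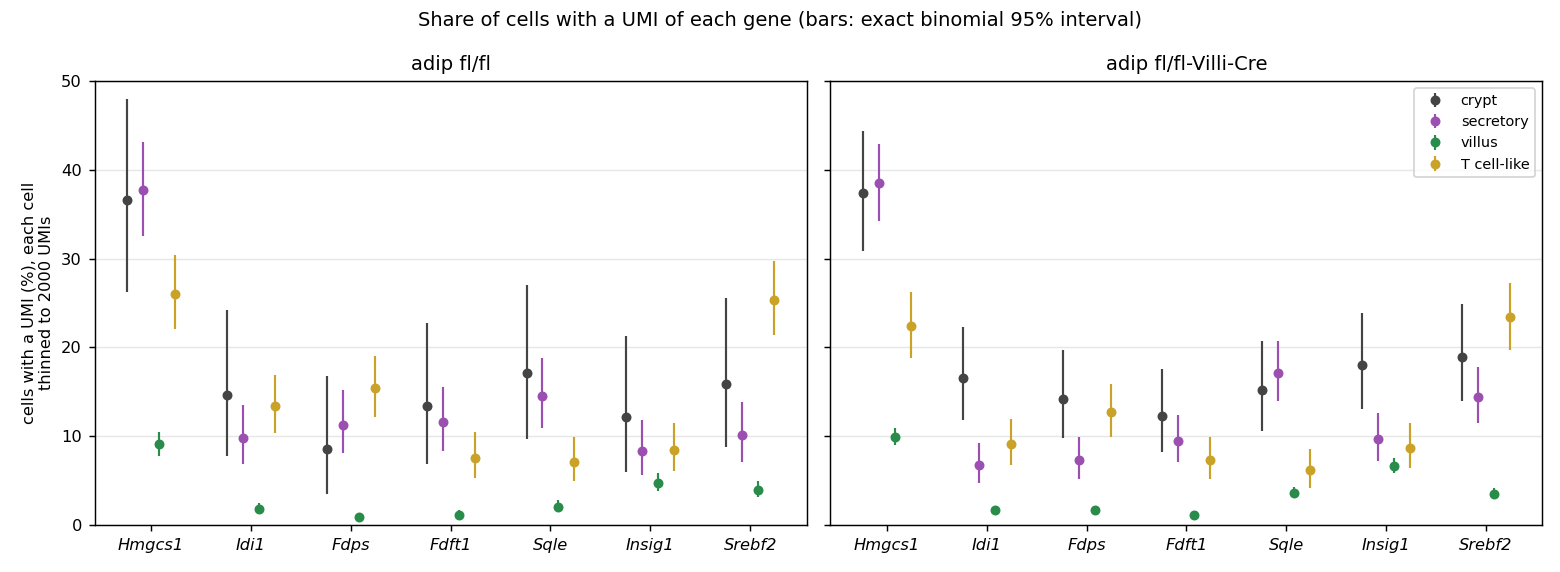
Share of cells (%) with at least 1 UMI of each gene after every cell was thinned to 2000 UMIs, in crypt, secretory, villus and T cell-like cells of adip fl/fl (left) and adip fl/fl-Villi-Cre (right), with exact binomial 95% intervals as bars. Villus cells (green) have the lowest share of the 4 classes drawn for each gene, from 0.840% to 9.93%.

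Most other enzymes of the pathway had the same direction, and Tm7sf2 and Sc5d were among those that did not reach 1.5. Of 15 others, 12 were at least 1.5-fold higher in crypt than villus cells in both libraries. In each library alone, 47.6% and 48.5% of all genes were. The median ratio over all 15 was 3.35 and 2.39, and that of all genes 1.43 and 1.45. Lss, which closes the sterol rings, had 11.46 (7.62 to 17.5) and 6.27 (4.78 to 8.22), Cyp51, the lanosterol demethylase, 4.05 and 3.33, and Msmo1, which removes methyl groups from the ring, 3.94 and 2.75. The highest, Lbr, with 17.7 (15.1 to 20.8) and 16.2 (14.5 to 18.2), encodes the lamin B receptor, both a sterol reductase and a protein of the inner nuclear membrane. Sc5d, a sterol desaturase, had ratios of 0.762 (0.649 to 0.891) and 0.743 (0.670 to 0.823). Tm7sf2, another sterol reductase, had 1.24 (0.677 to 2.13) and 1.17 (0.801 to 1.68). Against villus cells, 6 of the 15 were at least 1.5-fold higher in secretory cells of adip fl/fl and 3 in adip fl/fl-Villi-Cre. Of all genes, 28.6% and 26.5% were. The 3 that were higher in both libraries were Lss, Cyp51 and Msmo1.

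**Figure D3:**
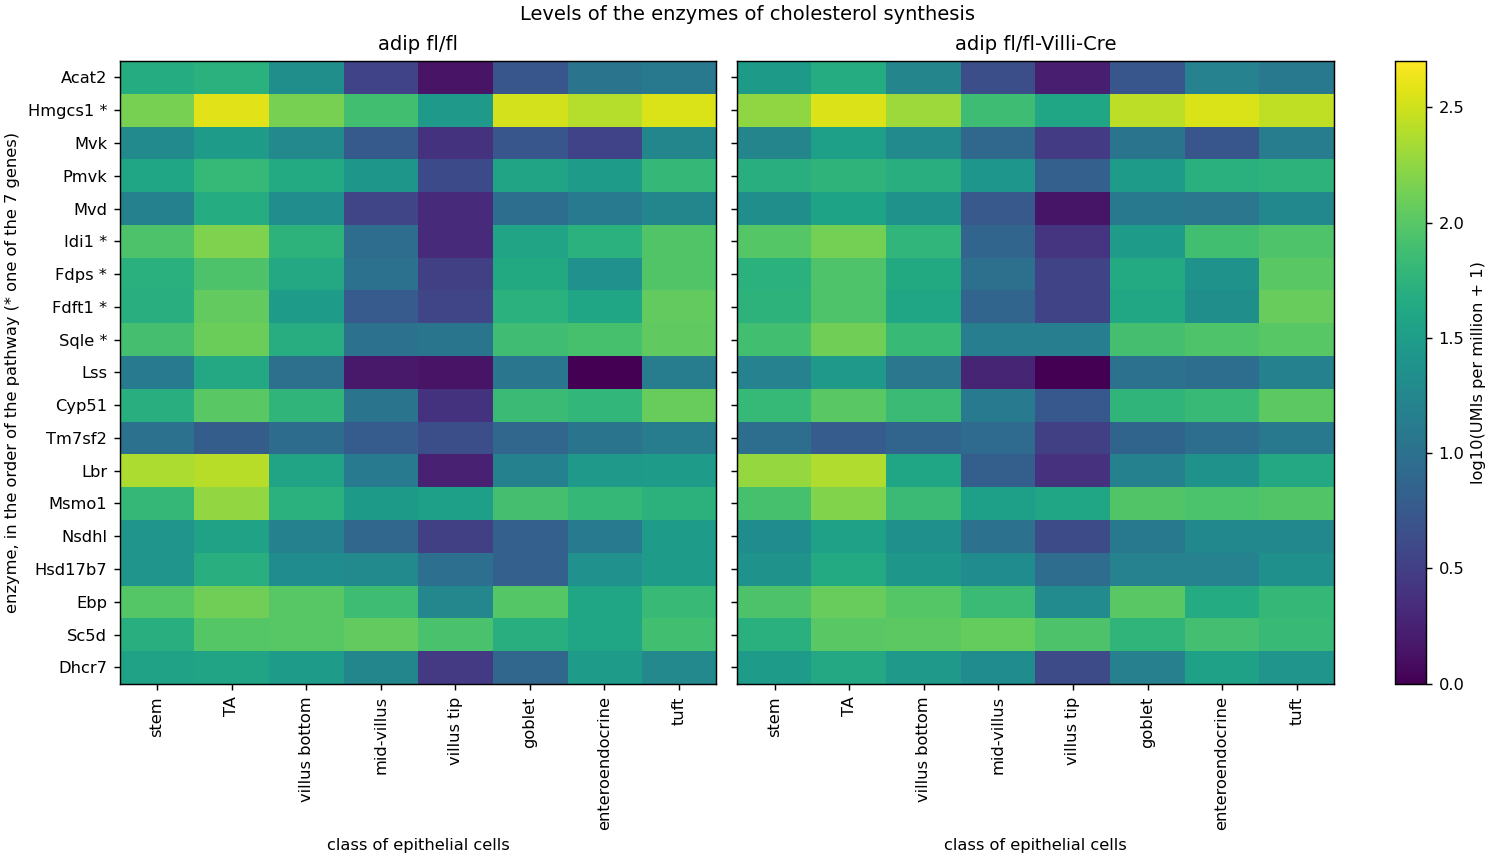
Levels (colour, log10 of CPM + 1) of enzymes in the order of the pathway, by class of epithelial cells, for adip fl/fl (left) and adip fl/fl-Villi-Cre (right). Most rows darken from TA to villus tip, while Sc5d stays even.

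**Figure D4:**
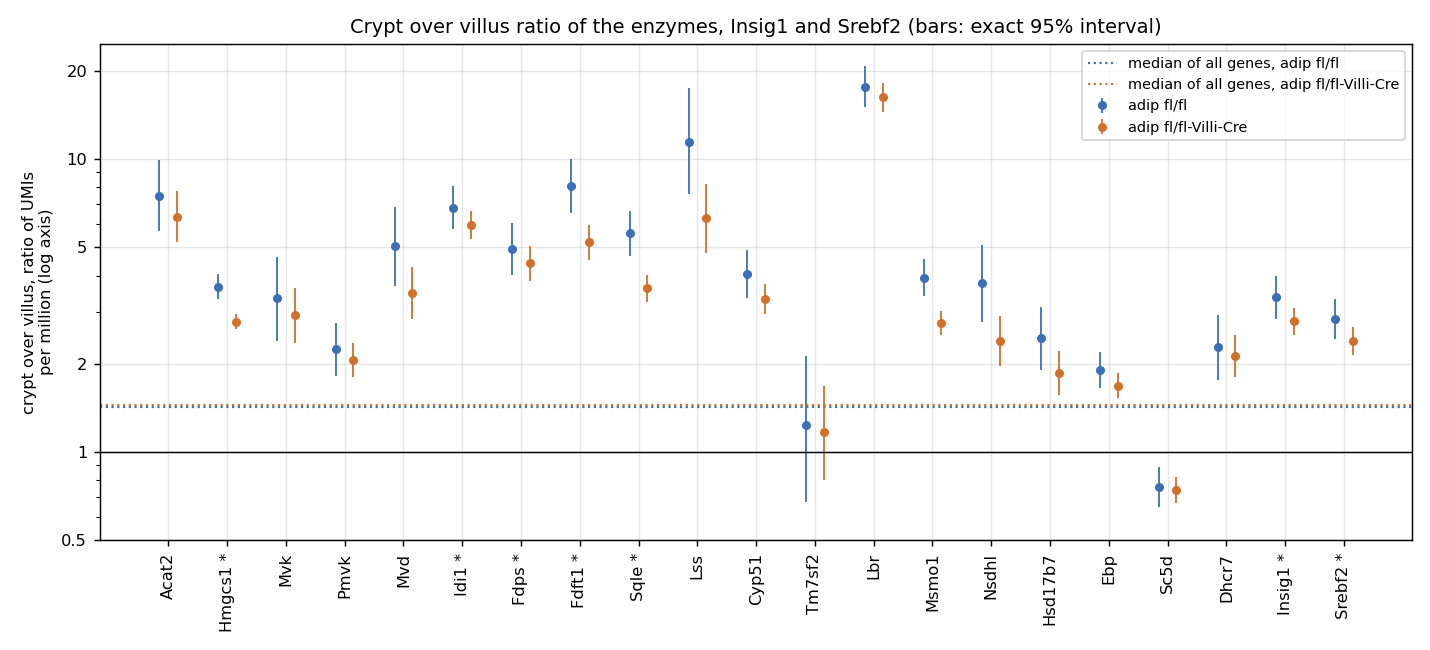
Ratio of crypt to villus level (log axis) for enzymes of the pathway, Insig1 and Srebf2 in both libraries, with exact 95% intervals as bars and the medians over all genes tested dotted (1.43 and 1.45). The 7 genes, starred, lie above the dotted lines, the intervals of Tm7sf2 cross them, and Sc5d lies below 1.

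Genes around the pathway were counted in the same way. The shares of all genes at least 1.5-fold higher in the crypt, 47.6% and 48.5%, are for each library alone. No share for both libraries at once was computed. Of 5 genes of SREBP processing, 2 were at least 1.5-fold higher in the crypt in both libraries, Scap, the escort, with 1.64 and 2.55 and Mbtps2, the site-2 protease, with 2.17 and 2.08. The median over all 5 was 1.11 and 1.29, where all genes had 1.43 and 1.45. Insig2 was lower, with 0.501 (0.369 to 0.667) and 0.495 (0.411 to 0.591). Of 7 other known targets of SREBP2, 5 were higher in both, among them Tmem97, a sterol-responsive membrane protein, with 7.48 and 8.04. Stard4, a carrier of cholesterol between membranes, had 1.12 (1.01 to 1.24) and 1.11 (1.04 to 1.19), and held 239 CPM in TA-like cells, 234 in the mid-villus and 34.1 CPM at the villus tip of adip fl/fl. Of 10 genes of fatty acid synthesis 8 had enough UMIs, and 6 were higher in both libraries, among them Fasn, fatty acid synthase, with 12.4 and 9.02 and Scd2, a desaturase, with 9.11 and 7.03. Of 7 genes that lead isoprenoids elsewhere, 5 were higher in both. The median over all 7 was 1.80 and 1.67, near the 1.43 and 1.45 of all genes. Of 6 LXR targets and sterol esterification genes 5 were at least 1.5-fold lower in the crypt in both libraries, as were 23.3% of all genes in adip fl/fl and 23.1% in adip fl/fl-Villi-Cre, and Soat1 was higher. Abcg5 and Abcg8, which together return sterols to the lumen, had 0.144 and 0.166 for the former and 0.0946 and 0.0962 for the latter, and Soat2, which esterifies cholesterol in enterocytes, 0.122 and 0.158. Among paralogs, Acat1, of the mitochondrion, had ratios of 1.60 and 1.81, and Idi2 had 0 and 1 UMIs in crypt and 0 and 0 in villus cells.

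Between the libraries the 7 genes were within 1.5-fold of each other in crypt, villus and secretory cells. Past 1.5-fold in either direction, with at least 20 UMIs over both libraries, were 0 of 7 genes in crypt cells (11.7% of all genes), 0 of 7 in villus cells (10.3%) and 0 of 7 in secretory cells (16.8%). With 1 library per genotype these are folds between libraries, and genotype and library cannot be told apart. In crypt cells Hmgcs1 was at 277 CPM in adip fl/fl and 269 in adip fl/fl-Villi-Cre, a fold of 0.969 (0.882 to 1.06). Fdft1 had the lowest fold, 0.850 (0.714 to 1.01), from 84.9 and 72.2 CPM, and Insig1 the highest, 1.02 (0.870 to 1.21), from 91.8 and 93.9 CPM. The intervals of all 7 genes held 1 and lay within 1.5-fold, and the median fold was 0.969, that of all genes being 0.993. With cells named by their own marker scores in place of clusters, Hmgcs1 had 1.202, Sqle 1.23 and Insig1 1.27. The crypt classes were mixed differently in the libraries, so their folds were also read apart. Stem-like cells gave 979750 of 2319253 crypt UMIs (adip fl/fl) against 2730025 of 5473294 (adip fl/fl-Villi-Cre). Among stem-like cells all folds but that of Sqle (0.943) were above 1. Only the interval of Hmgcs1, 1.28 (1.06 to 1.56), left out 1. Of the 39 stem-like cells of adip fl/fl, the one richest in the gene held 26.9% of the UMIs of Sqle, 23.3% of Idi1 and 20.4% of Hmgcs1. In adip fl/fl-Villi-Cre these shares were 7.32%, 6.42% and 5.71%. Stem-like folds without that cell were not computed, so their directions, that of Sqle included, may rest on single cells. Among TA-like cells folds ran from 0.803 (0.652 to 0.991) for Fdft1 to 1.04 for Sqle, and the other intervals held 1.

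In villus cells all 7 folds of adip fl/fl-Villi-Cre over adip fl/fl were above 1, with a median of 1.24 where all genes had 0.994. This did not hold for the villus as planned, without enterocytes whose zone could not be named, where Fdps was at 0.994. Sqle was at 18.9 and 28.2 CPM, a fold of 1.495 (1.31 to 1.71) that lay just under the threshold and was 1.52 without the cell of each library richest in it. Fdft1 was at 10.5 and 13.9 CPM, a fold of 1.32 (1.10 to 1.59), Hmgcs1 had 1.27 (1.19 to 1.37) and Insig1 1.24 (1.10 to 1.39). The intervals of the other 3 genes held 1, with Fdps at 1.09 (0.933 to 1.28), Idi1 at 1.07 (0.929 to 1.24) and Srebf2 at 1.06 (0.954 to 1.18). Of the 15 other enzymes 13 had a fold above 1 in villus cells, with a median of 1.14 and 0 past 1.5-fold. The villus classes gave different shares of the villus UMIs in the libraries, 25.5% and 27.3% for the bottom, 37.0% and 37.6% for the mid-villus, 17.3% and 22.2% for the tip and 20.2% and 12.9% for enterocytes whose zone could not be named, so folds are also given within classes.

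The 7 genes did not share 1 direction in every class of enterocytes. All genes had a median fold of 1.00 at the villus bottom, 0.998 in the mid-villus, 1.02 at the tip and 1.01 where no zone could be named. At the villus bottom 7 of 7 folds were above 1, with a median of 1.18, and 0 passed 1.5-fold (10.1% of all genes), Hmgcs1 having 1.46 (1.32 to 1.61), Sqle 1.36 (1.15 to 1.61) and Fdft1 1.29 (1.04 to 1.61). In the mid-villus 2 of 7 were above 1, with a median of 0.973, and 0 passed (10.0%), and Sqle had 1.48 (1.08 to 2.07) where Hmgcs1 had 0.962 (0.855 to 1.08). At the tip 5 of 6 were above 1, with a median of 1.31, and 0 passed (15.1%), Idi1 having too few UMIs, with Insig1 at 1.37 (1.10 to 1.73) and Hmgcs1 at 1.36 (1.04 to 1.78). In enterocytes whose zone could not be named 4 of 7 were above 1, with a median of 1.18, and 2 passed (13.3%), Sqle with 2.48 (1.57 to 4.05) from 8.10 and 20.1 CPM, and Fdps with 2.14 (0.867 to 5.98) from 7 and 20 UMIs. The fold of Sqle was thus above 1 in each class of enterocytes, with an interval that held 1 at the tip, where it was 1.30 (0.838 to 2.07). Of the other enzymes, read against the same shares of all genes, 1 of 15 passed at the bottom, Nsdhl with 1.503 (1.11 to 2.06). In the mid-villus 3 of 14 passed, Mvd with 1.754 (0.978 to 3.34), Tm7sf2 with 1.506 (0.984 to 2.37) and, lower in adip fl/fl-Villi-Cre, Lbr with 0.484 (0.339 to 0.692). At the tip 4 of 10 passed, Cyp51 with 2.98 (1.06 to 11.6), Pmvk with 1.91 (0.884 to 4.72), Dhcr7 with 1.64 (0.606 to 5.54) and, lower, Tm7sf2 with 0.662 (0.276 to 1.70). In enterocytes whose zone could not be named 1 of 11 passed, Mvk, which was lower with 0.623 (0.241 to 1.57).

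**Figure D5:**
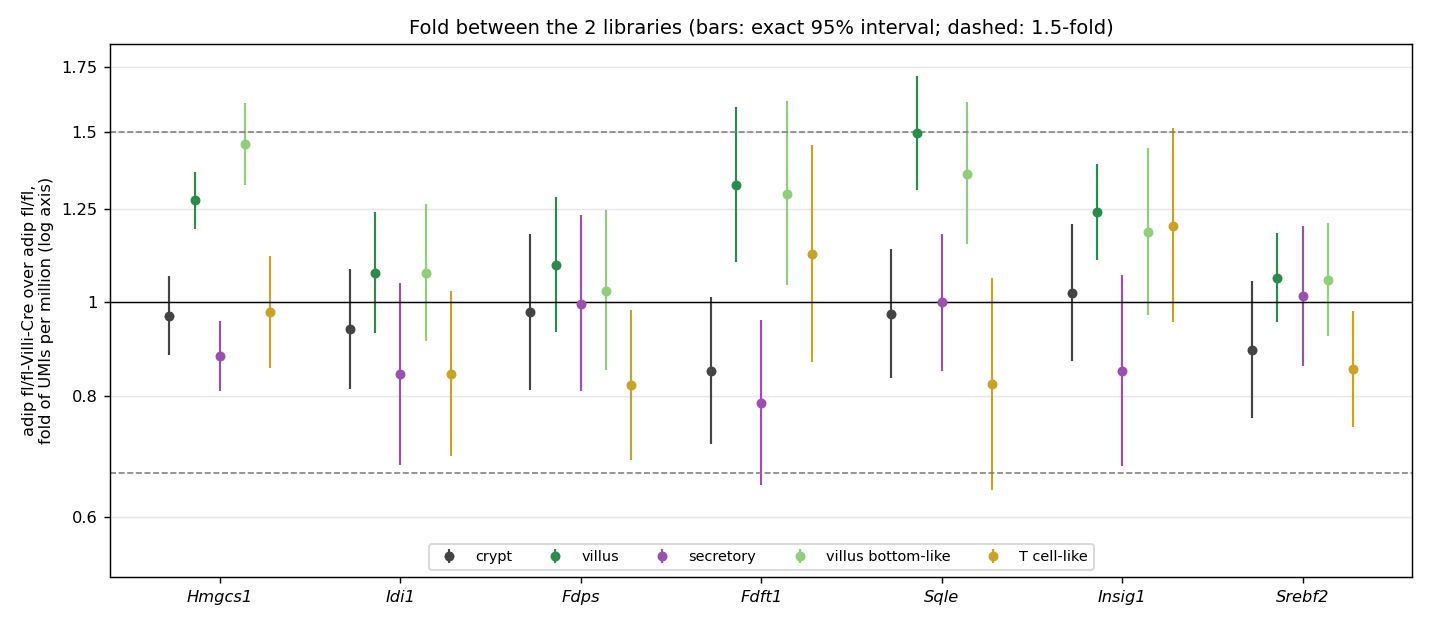
Fold of adip fl/fl-Villi-Cre over adip fl/fl (log axis) for each gene in crypt, villus, secretory, villus bottom-like and T cell-like cells, with exact 95% intervals that cover counting error only as bars and 1.5-fold dashed. Crypt points lie from 0.850 to 1.02 and villus points from 1.06 to 1.495, the last being Sqle.

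In secretory cells the median fold of the 7 genes was 0.880, and that of all genes 0.974. Fdft1 was at 62.8 and 49.4 CPM, a fold of 0.787 (0.647 to 0.959), and Hmgcs1 had 0.880 (0.809 to 0.957). The intervals of the other 5 held 1, with folds from 0.842 (Idi1) to 1.01 (Srebf2). Tuft-like cells, high in Fdft1, gave 618307 of 2915194 secretory UMIs in adip fl/fl and 699927 of 4896083 in adip fl/fl-Villi-Cre. Within goblet-, enteroendocrine- and tuft-like cells the fold of Hmgcs1 was 0.839 (0.758 to 0.929), 1.42 (1.10 to 1.83) and 0.801 (0.657 to 0.977). That of Fdft1 was 0.770 (0.594 to 1.003), 0.572 (0.230 to 1.36) and 1.05 (0.753 to 1.47). In T cell-like cells, where villin-driven Cre has no known activity, folds ranged from 0.821 (0.687 to 0.982) for Fdps to 1.2001 (0.954 to 1.51) for Insig1. Among the 15 other enzymes 1 passed 1.5-fold in secretory cells, Mvk, mevalonate kinase, with 1.504 (0.868 to 2.71) from 67 UMIs over both libraries. In the lists around the pathway, 2 of 31 genes tested passed in crypt, 1 of 32 in villus and 5 of 32 in secretory cells, a smaller share than that of all genes in crypt and villus cells and a like share in secretory cells. Fabp5, a lipid carrier abundant in enteroendocrine-like cells (1719 and 2096 CPM), had a fold of 3.38 (2.20 to 5.42) in villus cells from 1.57 and 5.32 CPM, and Soat1 and Elovl5, a fatty acid elongase, had 1.91 (1.39 to 2.66) and 1.66 (1.07 to 2.67) in crypt cells. In secretory cells Abca1, which exports cholesterol, had 1.76 (1.24 to 2.55), Me1, malic enzyme, 1.86 (0.814 to 4.77) and Aldoc, an aldolase, 1.70 (0.691 to 4.76), while Acaca, acetyl-CoA carboxylase, was lower with 0.549 (0.361 to 0.832), as was Fads2, a desaturase, with 0.655 (0.387 to 1.11). Beside these, Apoa1 had a fold of 2.01 in crypt, 1.54 in secretory and 2.14 in T cell-like cells.

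The genes whose levels ran most like each of the 7 were sought by Pearson correlation of log2(CPM + 10) over 11 classes in both libraries, 22 points that share depth and composition within a library, among 11140 genes with at least 200 UMIs. Srebf2 was most like Cyp51 (r = 0.98), Idi1 (0.93) and Ufc1 (0.93). Fdps was most like Cyp51 (0.96), Srp19 (0.95) and Mapre2 (0.93), and Fdft1 like Fdps (0.93), Idi1 (0.92) and Sqle (0.92). Hmgcs1 and Sqle were each among the 3 genes most like the other (0.93), with Aacs (0.93) for Sqle and Plscr1 (0.90) for Hmgcs1. Idi1 was most like Akt1 (0.97), Eif5b (0.96) and Mat2a (0.95), none of which is an enzyme of the pathway. Insig1 had the lowest such values, with Msmo1 (0.85), Kctd10 (0.80) and Lpin1 (0.80), and its correlation with the other 6 genes lay between 0.59 (Hmgcs1) and 0.73 (Idi1). Among those 6 the lowest was 0.79, between Hmgcs1 and Fdps. Genes with a broad fall up the villus were alike too, such as Ppia with Idi1 (0.89).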

How the data were processed

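Single cells of small intestinal epithelium were measured with a 10x Genomics 3′ kit, 1 library per genotype. The deposited tables hold raw counts of UMIs per gene and barcode, which the authors made with bcl2fastq 5.0.1 and Cell Ranger on mm10, as the submitters' processing notes name them. The barcodes in the tables are as many as the study names before its filter on cells, and that filter, as its methods state it, left fewer cells here than the study kept.

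The 7 genes, the lists, classes and thresholds were chosen with earlier results of these data known. Cells with more than 500 genes and under 25% of UMIs from genes named mt- were log-normalized (scale factor 10000) and clustered with Seurat 5.3.0 (R 4.3.3) on 2000 variable genes less the listed ones, 20 principal components and a resolution of 0.8. A marker counted at 2-fold and 10 UMIs. Clusters with at least 5 stem or cycling and under 3 T cell markers were split at a resolution of 0.4, and 1 and 5 barcodes with at least 5 UMIs of stromal markers were set aside, both chosen after seeing the data. A crypt sub-cluster with goblet and Paneth transcripts (4 and 67 cells) and an enterocyte cluster led by Areg (164 and 295 cells) stayed unnamed. No doublet was taken out, since Scrublet in scanpy 1.11.5 marked 3 and 2 cells, too few to have worked.

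UMIs were summed per class and library. The plan counted the villus bottom, mid-villus and tip as villus cells. Enterocytes whose zone could not be named (787 and 1011 cells) were counted with them as well. Sums have exact Poisson, ratios and folds exact conditional binomial and shares exact Clopper-Pearson intervals (scipy 1.17.1). Of these, only the interval of ratios and folds was tested on simulated data. The simulated counts were Poisson, as that interval assumes, so the test says nothing on spread between cells. With 1 library per genotype no p-value was computed, and a gene was called past 1.5-fold with at least 20 UMIs. Named genes are the 7 and their paralogs, in each list the 4 with most UMIs and the 2 largest rises and falls between libraries in villus and in crypt cells, and the 3 genes most like each of the 7. Some genes that these rules select are not reported here. Genes outside these rules, such as Mvk, Mvd, Pmvk, Dhcr7, Tm7sf2, Acaca and Idi1-ps2, were chosen after their values were seen. The alternatives changed the filters, variable genes, resolution, components, doublets, denominator, weight of cells and naming of cells.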

Additional observations from a re-analysis of the deposited data

Results flagged for a closer look

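Outside the comparisons, 3 sets of barcodes held UMIs of the 7 genes. Summed over the 7 genes, the barcodes removed by the mitochondrial limit held 76.6 (72.1 to 81.4) CPM in adip fl/fl and 97.3 (91.7 to 103) in adip fl/fl-Villi-Cre, where villus cells held 199 and 243 CPM. The unnamed crypt sub-cluster with goblet and Paneth transcripts held 477 (328 to 669.5) CPM in 4 cells and 889.6 (812 to 973) CPM in 67 cells, where crypt cells held 851 and 809 CPM. The unnamed enterocyte cluster led by Areg held 300.3 (275 to 328) and 383 (359 to 409) CPM.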

How the results depend on the processing

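The count of the 7 genes higher in crypt than villus cells in both libraries stayed at 7 under all 16 alternatives computed for it, and no crypt to villus ratio fell under 1.5, but their size moved by more than the counting error in 53 of 224 values. With the mean over cells of each cell's own CPM, that of Fdps rose from 4.93 and 4.401 to 12.8 and 8.69, Fdft1 from 8.09 and 5.20 to 16.2 and 11.2, Srebf2 from 2.85 and 2.40 to 5.55 and 4.58, Hmgcs1 from 3.67 and 2.79 to 6.34 and 4.504 and Sqle in adip fl/fl from 5.57 to 9.35. Under 10% mitochondrial UMIs, Fdps, Fdft1, Sqle and Srebf2 in adip fl/fl were at 3.02, 5.11, 3.53 and 1.853. The lowest was that of Srebf2 in adip fl/fl-Villi-Cre, 1.54, with cells under 10% mitochondrial UMIs. The genes past 1.5-fold between the libraries stayed at 0 in crypt cells, although the direction of folds near 1 was not stable: in crypt cells those of all but Srebf2 crossed 1 under some alternative, and in villus cells Fdps was at 0.994 without the clusters of no named zone. In villus cells they went from 0 to 1 with more than 1000 genes per barcode, with the mean over cells of each cell's own CPM and without the cell richest in the gene, the gene being Sqle (1.51, 1.51 and 1.52), and over all alternatives its fold ranged from 1.36 to 1.52. In secretory cells they went from 0 to 1 with the mean over cells, the gene being Fdft1 (0.649). Of the other enzymes, 0 passed in crypt cells and 1 did with the top 8% of Scrublet scores removed or with the mean over cells. In secretory cells 1 passed, and this became 0 with more than 1000 genes, 13 mitochondrial genes, all 2000 variable genes, resolution 0.4, 30 components or the mean over cells, 2 under 10% mitochondrial UMIs and 3 with the Scrublet scores removed. Other enzymes higher in secretory than villus cells in both libraries went from 3 to 11 with the mean over cells. The 7 genes whose crypt share lay above the villus share became 4 when thinned to 1000 UMIs and 4 under 10% mitochondrial UMIs. Fewer UMIs or cells remained there, and the causes of this and of the other changes were not tested. The alternatives on unnamed clusters, shared barcodes and a total without the 100 most abundant genes were chosen after seeing the data. The villus without the clusters of no named zone, run here as an alternative, was however the villus as planned. No paired analysis was possible because each genotype is 1 library.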
